A study of Mus musculus with 14 samples.

Results

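Oxidative phosphorylation genes are described here in 14 samples of 4T1, a mouse mammary tumor cell line, in which Cnot7 was over-expressed or knocked down. The set was chosen by gene symbol, not by measured values: every gene whose symbol begins with Nduf followed by a, b, c, s or v, with Uqcr, with Cox4 to Cox8 or with Atp5, together with Sdha, Sdhb, Sdhc and Sdhd. Of 19938 genes with a probe set of their own, 89 met the rule, and each was represented by its probe set with the highest mean. Complex I contributed 41 genes (6 core subunits, 28 accessory subunits and 7 assembly factors), complex II 4, complex III 8, complex IV 19 and complex V 17. Ndufa4 and Ndufa4l2, named for complex I, were placed with complex IV, where the protein of the first is now known to reside. The rule thus takes in the assembly factors Ndufaf1 to Ndufaf7, which are not subunits of the finished enzyme.

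Oxidative phosphorylation is the process by which mitochondria turn the energy of nutrient electrons into ATP. Complex I takes electrons from NADH and complex II from succinate, complex III passes them through cytochrome c to complex IV, which reduces oxygen, and complexes I, III and IV pump protons across the inner membrane. Complex V, the ATP synthase, lets the protons flow back through its membrane ring and couples that flow to ATP synthesis in its F1 head. A few subunits are encoded by mitochondrial DNA, and all the others, including every gene of the set, are nuclear.

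RNA was hybridized to single-channel Affymetrix arrays, and the values are log2 intensities. The groups were 3 samples of 4T1 cells over-expressing FLAG-tagged human CNOT7, 3 of cells with the vector alone (vector control), 2 of cells with hairpin sh74 against Cnot7, 3 of cells with hairpin sh75 against Cnot7, and 3 of cells with a scrambled hairpin (shScramble). All were lentivirally transduced cells of the one line, which comes from BALB/c mice, with blasticidin selection in the over-expression arm and puromycin selection in the hairpin arm, and no group was untransduced. Replicate numbers follow the order of deposit and only name a sample. The replicates are called biological with no statement on separate cultures. The p-values set group differences against the spread between samples within groups, which may thus be technical.

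Cnot7, which encodes a deadenylase of the CCR4-NOT complex, served as the check of the labels. Its log2 intensity was 10.64, 10.02 and 10.08 in over-expressing cells, against 10.07, 10.52 and 10.15 with the vector, where the array need not detect the human cDNA. It was 8.71 and 9.33 with sh74 and 7.52, 8.51 and 8.07 with sh75, against 10.44, 10.33 and 10.20 with shScramble, a change of -1.31 for sh74 that did not pass the test (adjusted p = 0.279), while with sh75 Cnot7 fell by 2.29 (adjusted p = 0.00911, limma). Over all probe sets, pairs of samples correlated at 0.983 to 0.995 within groups and at 0.978 to 0.995 between groups. The 6 epithelial markers examined (Epcam, Krt8, Krt18, Krt7, Cdh1 and Cldn7) were all above background. Of 14 markers of fibroblasts, immune cells, endothelium and adipocytes, 9 were above it, with Ptprc, Lum, Dcn, Itgam and Fabp4 at background and a mean log2 level of the list between 5.08 and 5.36 in every group. The highest of these were Pdgfra, a marker of fibroblasts, at 6.83 to 9.25 over the 14 samples, and Cd68, a marker of macrophages, at 6.77 to 9.01, both overlapping between groups, and their part in the results was not tested.

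One library stood apart for the genes described here. In sh74 replicate 1, 34 of the 87 oxidative phosphorylation genes above background (39.1%) had their lowest value of the 14 samples, whereas 12.7% of all 16467 probe sets above background did, and 71 of the 87 lay below their own mean. The next highest share was 10.3%, in the third over-expressing sample. The same library, sh74 replicate 1, had the lowest Epcam (5.98, against a next lowest of 7.71), Cdh1 (10.28, next 10.65) and Cldn7 (5.78, next 5.83) of the series. Cldn7 was at 5.78 to 6.79 in samples of all 5 groups and at 10.08 to 10.92 in other samples of all 5, with 1 over-expressing sample at 7.84. The mean log2 level of the 6 epithelial markers spanned 9.60 to 11.38 with sh74, 9.95 to 11.14 with sh75 and 10.15 to 11.21 with shScramble. The part of these differences in the results was not tested, and the sh74 changes that moved by over 1.5 times without this library are given also without it. With only 2 sh74 samples, sh74 without it is a single library.

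The promoters of 5 genes, those of named genes of the comparisons below that differ in which motifs they hold, are shown beside the values given for these genes later. Nuclear respiratory genes are known for promoters without a TATA box that carry sites of NRF1, of ETS factors such as GABP, and of YY1, and the 300 bases printed, from RefSeq (GRCm38.p6) and on the strand of the gene, lie mostly before the annotated start and end 50 bases after it. Ndufab1 lies at chr7:122101799-122102098 (minus strand), Atp5k at chr5:108434350-108434649 (minus), Cox6b1 at chr7:30626065-30626364 (minus), Ndufaf5 at chr2:140170396-140170695 (plus) and Ndufs6 at chr13:73328433-73328732 (minus). Capitals mark GCGCATGC (NRF1), CCGGAAG (ETS) and AAGATGGC (YY1) on either strand. In Atp5k and Ndufaf5 the NRF1 letters overlap their own copy on the other strand, so that 1 run of capitals holds 2 matches.
Ndufab1: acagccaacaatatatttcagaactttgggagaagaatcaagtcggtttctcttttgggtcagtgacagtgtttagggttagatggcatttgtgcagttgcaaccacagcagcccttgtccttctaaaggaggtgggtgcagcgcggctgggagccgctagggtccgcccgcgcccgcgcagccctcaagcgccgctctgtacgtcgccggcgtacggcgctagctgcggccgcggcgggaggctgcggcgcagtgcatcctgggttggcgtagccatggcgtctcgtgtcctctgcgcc
Atp5k: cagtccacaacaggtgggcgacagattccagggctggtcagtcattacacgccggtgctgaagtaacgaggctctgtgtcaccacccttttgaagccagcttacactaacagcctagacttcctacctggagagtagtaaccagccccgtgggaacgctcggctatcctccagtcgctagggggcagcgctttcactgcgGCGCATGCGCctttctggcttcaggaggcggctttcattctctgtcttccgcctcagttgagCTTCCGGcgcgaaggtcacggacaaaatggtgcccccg
Cox6b1: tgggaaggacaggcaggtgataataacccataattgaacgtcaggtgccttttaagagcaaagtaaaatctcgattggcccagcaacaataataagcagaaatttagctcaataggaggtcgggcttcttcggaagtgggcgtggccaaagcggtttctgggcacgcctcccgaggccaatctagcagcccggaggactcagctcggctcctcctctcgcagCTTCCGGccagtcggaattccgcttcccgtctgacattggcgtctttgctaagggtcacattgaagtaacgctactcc
Ndufaf5: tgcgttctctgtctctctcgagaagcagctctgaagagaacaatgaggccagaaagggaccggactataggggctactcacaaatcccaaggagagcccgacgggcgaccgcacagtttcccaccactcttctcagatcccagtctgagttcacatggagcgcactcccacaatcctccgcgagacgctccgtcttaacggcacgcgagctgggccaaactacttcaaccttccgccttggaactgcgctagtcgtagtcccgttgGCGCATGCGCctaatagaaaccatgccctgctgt
Ndufs6: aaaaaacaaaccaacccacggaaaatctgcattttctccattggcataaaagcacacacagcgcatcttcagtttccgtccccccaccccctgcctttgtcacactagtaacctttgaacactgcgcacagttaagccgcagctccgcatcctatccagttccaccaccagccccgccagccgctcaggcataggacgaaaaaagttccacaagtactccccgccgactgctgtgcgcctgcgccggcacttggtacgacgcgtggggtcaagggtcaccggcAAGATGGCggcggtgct
Of the 89 genes, 73 had a promoter in the table. The NRF1 letters occurred in 12 of the 73 (16.4%), against 3.05% of 27025 genes with a promoter. The ETS letters occurred in 18 (24.7%, against 9.93%) and the YY1 letters in 10 (13.7%, against 3.19%). At least 1 of the 3 was found in 34 genes (46.6%, against 14.9%), while CCAAT, counted for comparison, occurred in 32 (43.8%, against 41.1%). A match is a run of letters and not a measured site.

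Nearly all of the genes were expressed. Above background, defined as a highest group mean over 4.89 log2, the 90th percentile of 1035 olfactory receptor probe sets, were 87 of 89, all but Cox7b2 and Cox8b. In complex IV, the 10 common genes (Cox4i1, Cox5a, Cox5b, Cox6a1, Cox6b1, Cox6c, Cox7a2, Cox7b, Cox8a and Ndufa4) had values of 8.56 to 12.12 over all samples, all above that limit. The 7 restricted paralogs (Cox4i2, Cox6a2, Cox6b2, Cox7a1, Cox7b2, Cox8b and Cox8c), known from lung, muscle, heart or testis, ranged between 4.29 and 6.59, with 5 of 7 genes above the limit. These are probe intensities, which do not measure how much of one transcript there is against another.

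The levels varied little. The standard deviation of a gene over the 14 samples had a median of 0.155 log2 (0.0590 to 0.513), against 0.172 for all probe sets above background, and the group means of a gene spanned a median of 0.261. Atp5b, the catalytic beta subunit of the F1 head, was the steadiest gene of complex V, at 12.36 to 12.59 in the 14 samples. Ndufaf4, a complex I assembly factor, was the most variable gene of all, with 8.57, 8.06 and 7.86 in over-expressing cells and 8.15, 7.11 and 8.07 with the vector, and with 7.11 and 7.71 with sh74, 7.29, 6.89 and 8.03 with sh75 and 8.38, 7.54 and 7.46 with shScramble. Its values overlapped in every comparison, and its change of 0.39 with over-expression had a 95% interval of -0.44 to 1.21. Ndufa6, an accessory subunit, was the steadiest of complex I, at 8.50 to 8.84. The standard deviation was largest for Sdhc (0.213) and smallest for Sdhb (0.107) in complex II, and likewise for Uqcrc1 (0.189) and Uqcrh (0.116) in complex III, for Cox4i1 (0.239) and Cox8c (0.0833) in complex IV, and for Atp5k (0.187) and Atp5b (0.0590) in complex V.

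**Figure D1:**
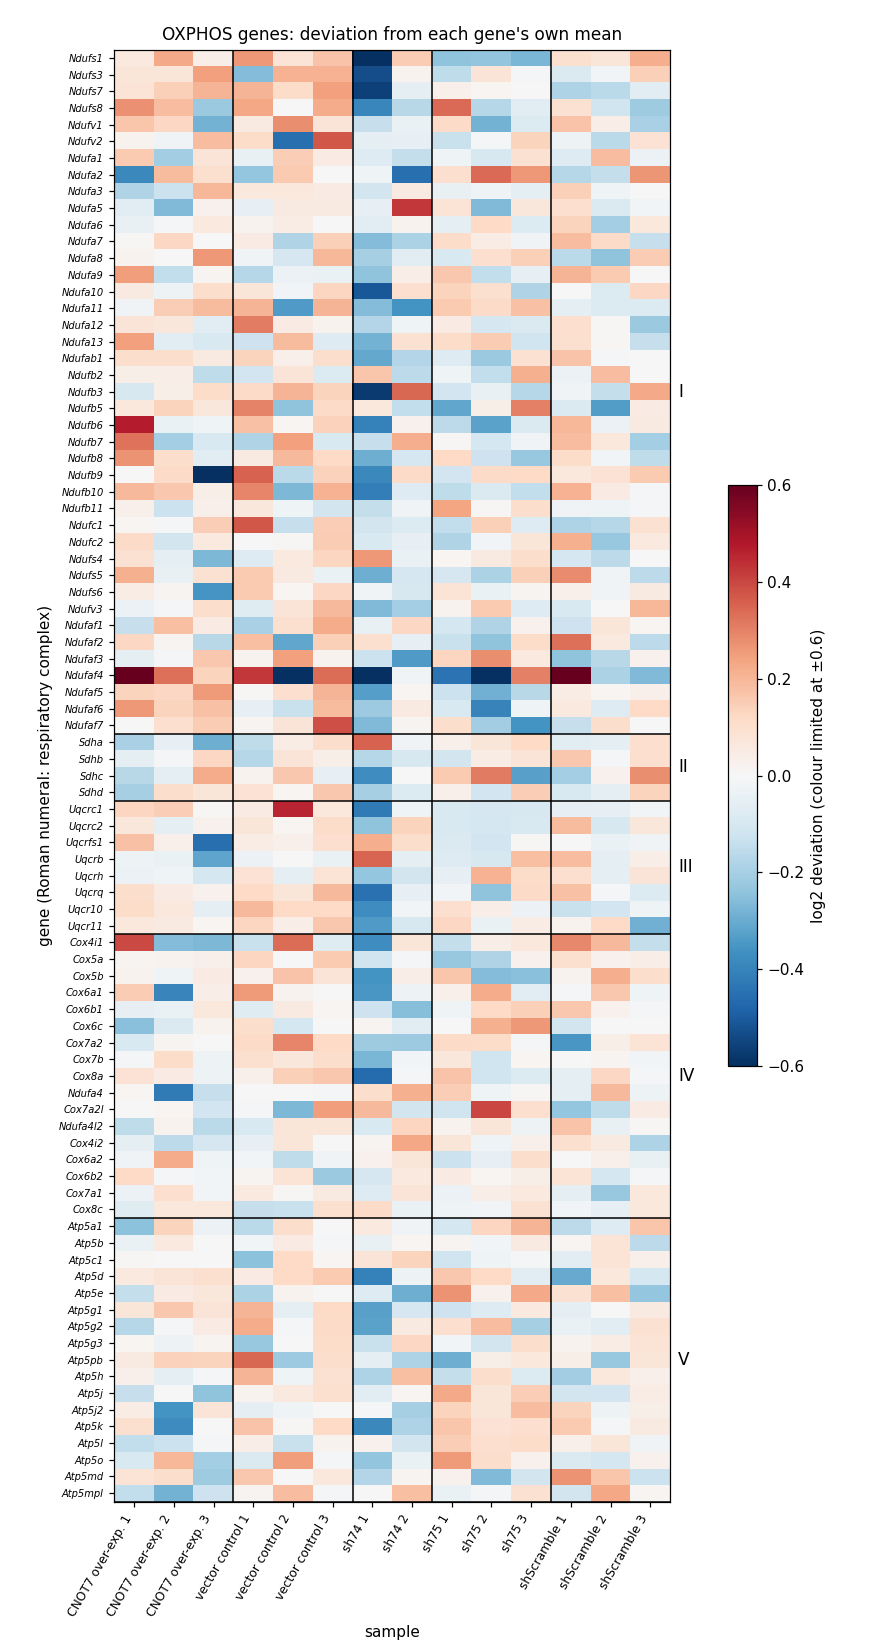
Deviation of each of 87 genes (rows, grouped by complex I to V) from its own mean over 14 samples (columns), in log2 units, red above and blue below the mean. The sh74 1 column holds the most blue, with 71 of 87 genes below their mean.

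No gene of the set passed the test in any comparison. With limma fitted across 21789 probe sets and an adjusted p under 0.05, calls were 0 of 89 for over-expression against vector (background 0% of all probe sets), for sh74 (background 0.00918%) and sh75 (background 0.0918%) against shScramble, for the mean of both hairpins against shScramble (background 0.0184%), for sh74 against sh75 (background 0.174%), for the over-expression change minus the mean knockdown change (background 0%) and for any difference among the 5 groups (background 0.0597%). At an unadjusted p under 0.05, 3 genes passed with over-expression (3.37%, against 2.58% of all probe sets), 8 with sh74 (8.99%, against 7.33%), 6 with sh75 (6.74%, against 8.26%) and 6 with the mean of both hairpins (6.74%, against 7.3%). Between the hairpins 16 passed (18%, against 8.93%), all lower with sh74 than with sh75. The over-expression change minus the knockdown change gave 4 (4.49%, against 3.49%), and the test over all 5 groups 13 (14.6%, against 9.24%). The intervals bound what these samples allow: the 95% interval lay within 2-fold either way for 86 of the 87 genes above background with over-expression, with sh74 and with sh75, the exception being Ndufaf4 in each, and within 1.5-fold for 85, 75 and 83.

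**Figure D2:**
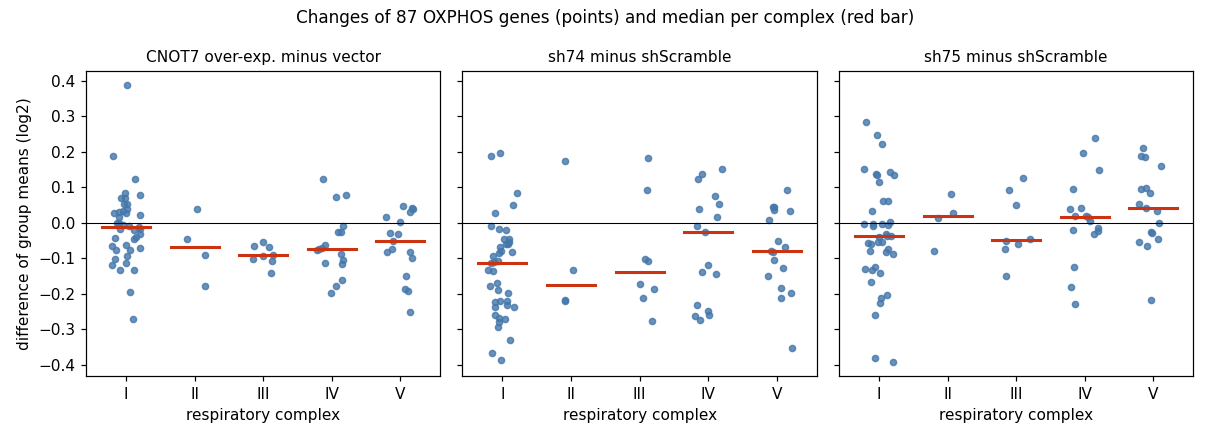
Difference of group means in log2 units (vertical axis) for each of 87 genes (points) by complex (horizontal axis), for CNOT7 over-expression minus vector, sh74 minus shScramble and sh75 minus shScramble, with the median of each complex as a red bar. The complex III points lie below 0 with over-expression, and the complex I median is -0.01 with over-expression, -0.11 with sh74 and -0.04 with sh75.

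With CNOT7 over-expression the differences were small and mostly below 0. Of 87 genes, 61 were lower than with the vector (median change -0.05 log2), beside 44.2% of all probe sets above background (median 0.01). Lower were also 46 of 77 mitochondrial ribosomal protein genes, 47 of 69 cytosolic ribosomal protein genes and 20 of 40 proteasome subunits. Complex III had all 8 genes lower, between -0.14 and -0.05 (median -0.09), and the 10 common genes of complex IV were all lower, with a median of -0.08. Complex I was close to even, with 25 of 41 lower and a median of -0.01, as was the F1 head, with 2 of 5 lower. Of the 9 genes for the membrane part and peripheral stalk of complex V, 8 were lower (median -0.08).

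Atp5mpl, a small membrane subunit of the ATP synthase, had 10.42, 10.28 and 10.44 in over-expressing cells, against 10.58, 10.75 and 10.56 with the vector. The groups did not overlap, and the change was -0.25 ± 0.09 (SE; adjusted p = 1). Atp5j, coupling factor 6 of the peripheral stalk, had 10.83, 10.96 and 10.72, against 10.99, 11.02 and 11.06 with the vector, a change of -0.19 ± 0.07 (adjusted p = 1). Every over-expressing sample again lay below every vector sample. Ndufs6, a zinc-binding accessory subunit of complex I whose promoter is printed above, had 9.48, 9.45 and 9.08, against 9.60, 9.45 and 9.56, and its change of -0.20 (adjusted p = 1) was -0.07 without the third over-expressing sample.

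Among higher genes the smallest p belonged to Ndufaf6 (0.19), Cox6a2 (0.12) and Ndufa9 (0.12), with adjusted p = 1 for each. The change was 0.12 for Ndufaf6 without vector control replicate 2, 0.04 for Cox6a2 without the second over-expressing sample and 0.02 for Ndufa9 without the first. Ndufa9, an accessory subunit that binds a nucleotide cofactor, had 9.63, 9.23 and 9.40, against 9.21, 9.34 and 9.34 with the vector, and the groups overlapped. Cox8b, at background by the rule above, is the third of the genes at an unadjusted p under 0.05 beside Atp5mpl and Atp5j, with 4.90, 4.84 and 4.91 in over-expressing cells, against 4.57, 4.47 and 4.66 with the vector, all near the limit of 4.89. In all, 6 genes were lower without overlap (6.74%, against a background of 3.42% of all probe sets) and 1 was higher (1.12%, against 4.3%).

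With sh74 more of the genes were lower, and the size of the difference rested on 1 library. Of 87 genes, 66 were lower than with shScramble (median -0.11), beside 48.3% of all probe sets above background (median 0.01). Other large gene families were also mostly lower with sh74. Lower were 69 of 77 mitochondrial ribosomal protein genes (median -0.18), 57 of 69 cytosolic ribosomal protein genes (-0.08) and 33 of 40 proteasome subunits (-0.11). Without sh74 replicate 1 these counts were 41, 49 and 30. Complex I had 36 of 41 lower (median -0.11), with all 6 core subunits below 0. The medians were -0.18 for complex II, -0.14 for complex III, -0.03 for complex IV and -0.08 for complex V, while the 10 common genes of complex IV had a median of -0.19. Without sh74 replicate 1 the median over the 87 genes was -0.02 with 48 lower, 22 of them in complex I and 3 in its core. The medians were then -0.02 for complex I, -0.06 for complex II, -0.02 for complex III, -0.03 for complex IV and 0.02 for complex V, with -0.05 for the common complex IV genes. Without sh74 replicate 2 the median over the 87 genes was -0.18, with 71 lower.

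Some genes were low in both sh74 samples and others in the first alone. Ndufab1, the mitochondrial acyl carrier protein and an accessory subunit of complex I, was low in both, with 9.25 and 9.38 in sh74 cells, against 9.72, 9.54 and 9.55 with shScramble. Both sh74 values lay below every shScramble value, the change was -0.29 ± 0.09 (adjusted p = 0.49), and its promoter, printed above, held none of the 3 motifs. Cox6b1, a subunit on the intermembrane space side of complex IV, had 11.06 and 10.93, against 11.35, 11.21 and 11.18, a change of -0.25 ± 0.08 (adjusted p = 0.495), again without overlap. Atp5k, the e subunit of the ATP synthase membrane part, had 7.36 and 7.56, against 7.90, 7.73 and 7.80 (-0.35 ± 0.12, adjusted p = 0.561), also without overlap. Without sh74 replicate 1 the changes were -0.23 for Ndufab1, -0.31 for Cox6b1 and -0.25 for Atp5k. These 3 had the smallest p, and the other 5 genes at an unadjusted p under 0.05 were Ndufv3, Ndufa7, Uqcrh, Sdhb and Atp5g1.

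Ndufs1, the largest of the complex I core subunits and carrier of iron-sulfur clusters, was low in the first sample alone. It had 9.12 and 9.89 in sh74 cells, against 9.84, 9.82 and 9.96 with shScramble, so that the first sample lay far below and the second among the controls. Its change of -0.37 (adjusted p = 0.682) was 0.02 without sh74 replicate 1 and -0.76 without sh74 replicate 2, where with 1 sh74 library left it was the one gene of the set called (adjusted p = 0.0137, limma, 122 probe sets called in all), the lone library being assumed to vary like the other groups. The core subunits Ndufs3 (9.83 and 10.38, against 10.27, 10.34 and 10.50) and Ndufs7 (10.45 and 10.96, against 10.83, 10.85 and 10.95) were likewise lowest in the first sample, with the second inside the controls for Ndufs3 and just above them for Ndufs7. Without the first sample their changes were 0.01 and 0.08. In sh74 replicate 1, 25 of the 87 genes lay 0.3 log2 or more below their mean (28.7%, against 12.6% of all probe sets above background), while in the 13 other samples 0 to 4 genes did.

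The low values of that library differed by complex. The median deviation was -0.46 for the complex I core, -0.29 for complex III, -0.22 for complex I as a whole, -0.18 for complex II, -0.10 for complex IV and -0.08 for complex V. Of the 16 genes above their own mean there, 4 stood out: Sdha, the flavoprotein of complex II, and Uqcrb, a small subunit of complex III, both at 0.35 above their means, Ndufs4 at 0.26, and Uqcrfs1, the Rieske iron-sulfur protein, at 0.22. Sdha had 10.72 and 10.35 in sh74 cells, against 10.30, 10.32 and 10.47, and its change of 0.17 (adjusted p = 0.823) was -0.01 without sh74 replicate 1. Beside these genes, mitochondrial ribosomal protein genes had their lowest value in that library in 40 of 77 cases (51.9%), cytosolic ribosomal protein genes in 22 of 69 (31.9%) and proteasome subunits in 6 of 40 (15%).

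**Figure D3:**
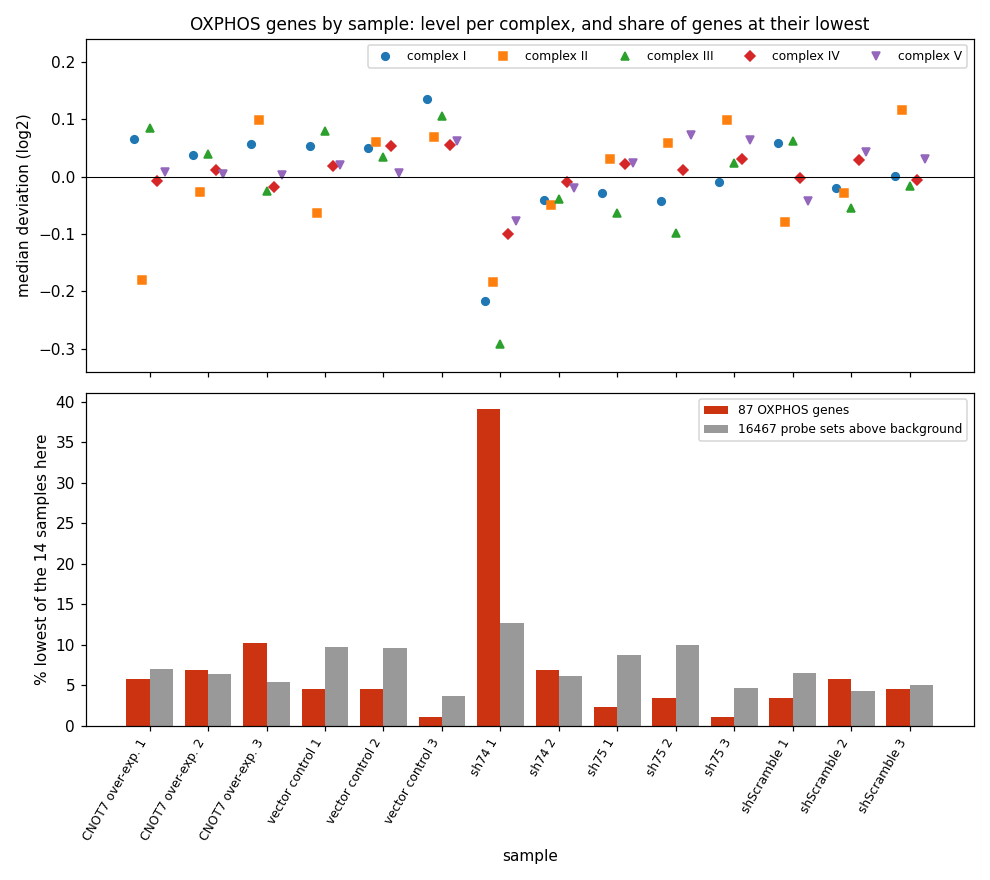
Top, median deviation in log2 units of the genes of each complex from their own means in each of the 14 samples. Bottom, percent of 87 oxidative phosphorylation genes (red) and of 16467 probe sets above background (gray) whose lowest value of the 14 fell in the sample, 39.1% and 12.7% in sh74 1.

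Of genes higher with sh74, the 3 with the smallest p were Ndufs4, Cox4i2 and Sdha. Ndufs4, an accessory subunit needed late in complex I assembly, had 9.29 and 8.99, against 8.93, 8.87 and 9.02 (0.20, adjusted p = 0.784), with overlap, and its change was 0.05 without sh74 replicate 1. In all, 15 genes were lower in both sh74 samples than in every shScramble sample (16.9%, against a background of 10.6%) and 2 were higher (2.25%, against 11.4%). The 2 were Uqcrfs1, with 9.14 and 9.03 against 8.92, 8.88 and 8.90, and Cox7b2, which was at background.

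With sh75, which is set against the same shScramble samples as sh74 and had lower Cnot7 values, the set as a whole stayed near 0. Lower than with shScramble were 48 of 87 genes (median -0.01), beside 50.2% of all probe sets above background (median 0.00). Of 77 mitochondrial ribosomal protein genes, 60 were lower (median -0.13). So were 46 of 69 cytosolic ribosomal protein genes (-0.04) and 23 of 40 proteasome subunits (-0.02). The medians were -0.04 for complex I, 0.02 for complex II, -0.05 for complex III, 0.02 for complex IV and 0.04 for complex V. The F1 head of complex V had 4 of 5 higher, with a median of 0.10. Within complex I, 6 of 7 assembly factors were lower, with a median of -0.17, whereas 3 of 6 core and 19 of 28 accessory subunits were.

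Ndufs1 had 9.50, 9.50 and 9.47 in sh75 cells, against 9.84, 9.82 and 9.96 with shScramble. The sh75 samples were tightly grouped and all lower, below every sample of the over-expression arm as well, and the change was -0.38 ± 0.15 (95% interval -0.71 to -0.05, adjusted p = 0.531). Ndufaf5, an assembly factor that modifies Ndufs7 in human cells, had 6.38, 6.22 and 6.35, against 6.56, 6.53 and 6.54, a change of -0.23 ± 0.09 (adjusted p = 0.523) without overlap. With sh74 Ndufaf5 had 6.18 and 6.52, just below the lowest control for the second sample, and all 5 hairpin samples lay below all shScramble samples. Its change with sh74 was -0.19, or -0.02 without sh74 replicate 1. Cox5a, a matrix-side subunit of complex IV, had 9.69, 9.74 and 9.95, against 10.02, 9.94 and 9.96, where the third sh75 sample lay between the controls (-0.18, adjusted p = 0.535).

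Atp5j had the smallest p of the genes higher with sh75, at 11.19, 11.04 and 11.12, against 10.85, 10.85 and 11.01 with shScramble. The groups did not overlap, and the change was 0.21 ± 0.07 (adjusted p = 0.467), while sh74 gave 0.03, or 0.07 without sh74 replicate 1. Ndufaf3, a complex I assembly factor, had 7.79, 7.94 and 7.71, against 7.41, 7.49 and 7.68 (0.28 ± 0.10, adjusted p = 0.484), and Cox6c, a small subunit of complex IV, had 11.86, 12.07 and 12.12, against 11.75, 11.86 and 11.85 (0.20, adjusted p = 0.605). Ndufaf3 did not overlap, and for Cox6c the lowest sh75 value and the highest shScramble value were both 11.86 after rounding. Without overlap, 5 genes of the set were lower (5.62%, against 6.76%) and 9 higher (10.1%, against 6.71%). The count at an unadjusted p under 0.05 was 6 with all samples, 1 without shScramble replicate 1 (1.12%, against 5.23% of all probe sets), 2 without sh75 replicate 2 (2.25%, against 5.63%) and 4 without shScramble replicate 3 (4.49%, against 10.5%).

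**Figure D4:**
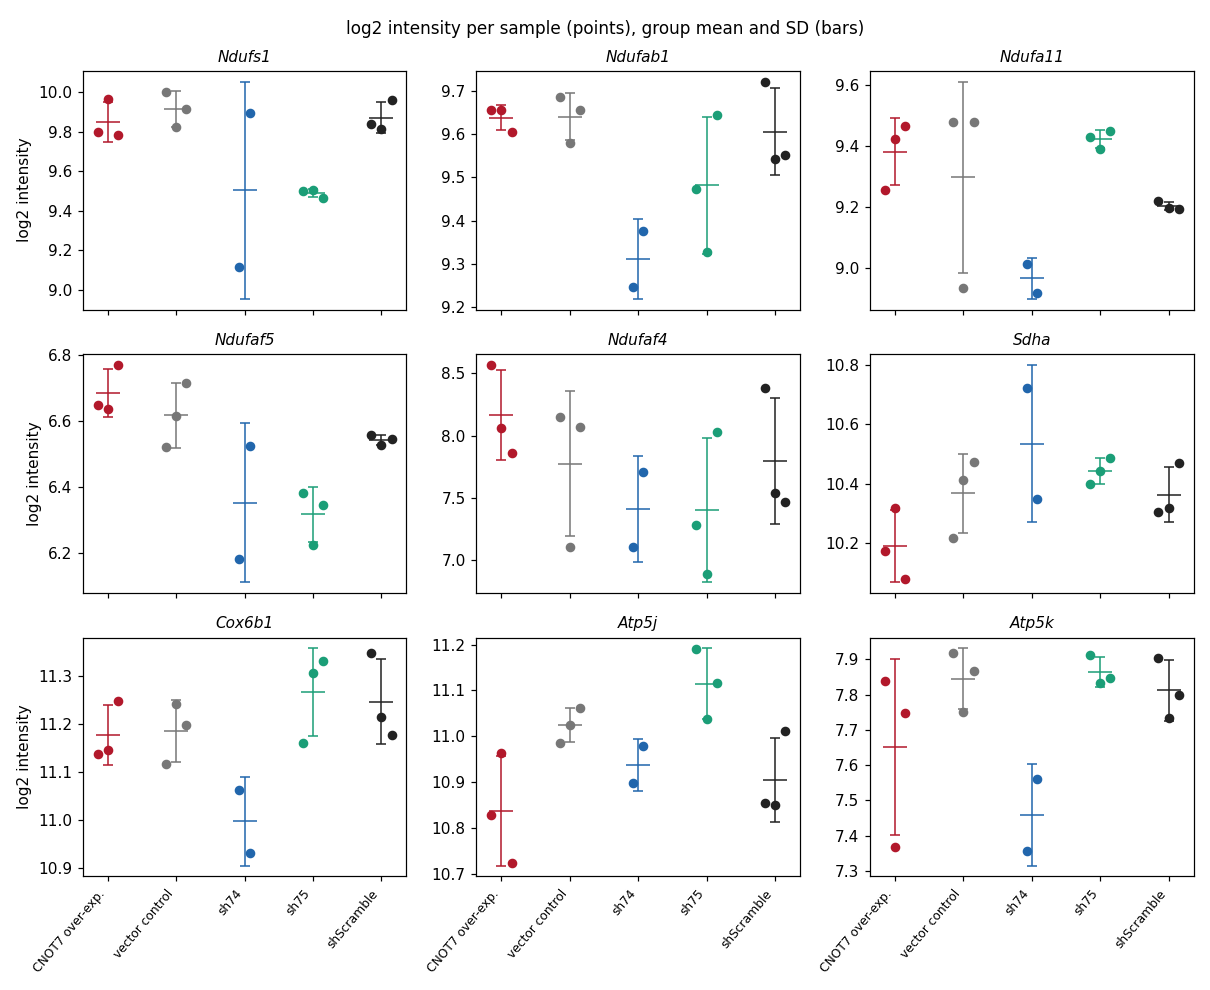
log2 intensity of 9 genes (vertical axes) in each sample (points) of the 5 groups (horizontal axis), with the group mean and SD as bars. The 3 sh75 points of Ndufs1 lie at 9.47 to 9.50, below all shScramble points, and the 2 sh74 points of Ndufa11 lie below all shScramble points with the sh75 points above them.

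Set against each other, the hairpins gave no called gene. Of 87 genes, 62 were lower with sh74 than with sh75 (median -0.09), beside 49.1% of all probe sets above background, and 48 were without sh74 replicate 1 (median -0.01), where 11 and not 16 genes had an unadjusted p under 0.05 (12.4%, against 9.12% of all probe sets). With all samples, 50 of 77 mitochondrial ribosomal protein genes, 45 of 69 cytosolic ribosomal protein genes and 29 of 40 proteasome subunits were lower with sh74. These counts were 23, 32 and 23 without sh74 replicate 1. The family medians were then 0.12, 0.01 and -0.06, against -0.07, -0.04 and -0.06 with all samples. Ndufa11, a membrane accessory subunit of complex I singled out after its values were seen, had 9.01 and 8.92 with sh74 and 9.43, 9.39 and 9.45 with sh75, and 9.22, 9.19 and 9.19 with shScramble. Both sh74 samples lay below and all sh75 samples above the controls, and the difference between hairpins was -0.46 ± 0.14 (adjusted p = 0.307), or -0.51 without sh74 replicate 1. It passed the test without vector control replicate 2, which enters through the shared spread (adjusted p = 0.0354). Vector cells had 9.48, 8.93 and 9.48, a range wider than the difference between the hairpins. Ndufaf3 (-0.39, adjusted p = 0.277), Cox6b1 (-0.27, adjusted p = 0.284) and Atp5k (-0.41, adjusted p = 0.317) had p-values as small, each lower with sh74 and without overlap, and were chosen after their values were seen.

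Averaged over both hairpins, 56 of 87 genes were lower than with shScramble (median -0.04), beside 48.6% of all probe sets above background (median 0.00). Lower were also 65 of 77 mitochondrial ribosomal protein genes, 57 of 69 cytosolic ribosomal protein genes and 32 of 40 proteasome subunits. Of the 87 genes, 47 were lower without sh74 replicate 1 (median -0.02) and 59 without sh74 replicate 2 (median -0.08). The count at an unadjusted p under 0.05 was 6 with all samples (6.74%, against 7.3% of all probe sets). The smallest p among lower genes belonged to Ndufab1 (-0.21, adjusted p = 0.585), Ndufs1 (-0.37, adjusted p = 0.589) and Ndufaf5 (-0.21, adjusted p = 0.608), and among higher genes to Atp5j (0.12), Ndufs4 (0.17) and Cox7a2l (0.20), the last a factor that helps complexes III and IV associate. Without sh74 replicate 1 the changes were -0.18 for Ndufs1, -0.12 for Ndufaf5, 0.09 for Ndufs4 and 0.12 for Cox7a2l. A gene that follows the level of Cnot7 would be higher with over-expression and lower with knockdown. For the over-expression change minus the mean knockdown change, the most positive by p were Ndufaf5 (0.28), Ndufaf6 (0.35) and Ndufa9 (0.30), and the most negative were Atp5j (-0.31), Sdha (-0.30) and Ndufs4 (-0.28), all with adjusted p = 1. This difference was 0.19 for Ndufa9 without the first over-expressing sample and -0.19 for Ndufs4 without the third. The median over the set was 0.02, with 42 of 87 below 0.

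Of the core subunits of complex I, Ndufs7 was higher without overlap with sh75. Its log2 deviations from its own mean were 0.03, 0.01 and 0.00, against -0.19, -0.16 and -0.06 with shScramble. The core subunits Ndufv1, Ndufv2 and Ndufs8 overlapped between groups in each arm. Ndufv1 and Ndufv2, which form the NADH-oxidizing tip of complex I, had 9.19 and 9.29, and 10.45 and 10.45, with sh74, against 9.50, 9.37 and 9.14, and 10.47, 10.34 and 10.59, with shScramble, and their changes without sh74 replicate 1 were -0.05 and -0.01. Ndufs8, a carrier of iron-sulfur clusters, had 9.84 and 10.07, against 10.32, 10.11 and 10.02, a change of -0.20 that was -0.09 without sh74 replicate 1. Of these 3 genes, the change with sh75 lay between -0.09 and 0.12 and with over-expression between -0.13 and 0.05.

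In complex II, Sdhb, the iron-sulfur subunit, had 9.75 and 9.83 with sh74, against 10.08, 9.92 and 10.02 with shScramble, without overlap (-0.22, adjusted p = 0.661, or -0.18 without sh74 replicate 1). Sdhc and Sdhd, the membrane anchors, overlapped, with changes of -0.22 and -0.13 (-0.04 and -0.07 without sh74 replicate 1). In complex III, the core proteins Uqcrc1 (10.61 and 11.01, against 10.99, 10.98 and 11.02) and Uqcrc2 (10.50 and 10.88, against 10.93, 10.65 and 10.81) were low in sh74 replicate 1 alone, with changes of 0.01 and 0.08 without it. With sh75 Uqcrc1 had 10.94, 10.93 and 10.94, all just below shScramble (-0.06). In complex V, the F1 subunits Atp5a1, Atp5b and Atp5c1 had changes of 0.04, 0.01 and 0.09 for sh74 (0.00, 0.03 and 0.12 without sh74 replicate 1) and 0.10, 0.04 and -0.07 for sh75, and none of them differed by more than 0.05 in either direction with over-expression.

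The paralogs of complex IV included no gene past the test in any comparison. Cox4i1 had 9.75 and 10.20 with sh74, against 10.41, 10.32 and 9.98 with shScramble (-0.26), while its paralog Cox4i2 had 6.15 and 6.36, against 6.23, 6.19 and 5.94 (0.14), both with overlap. Without sh74 replicate 1 these changes were -0.04 and 0.24, and that of Cox4i2 was 0.03 without sh74 replicate 2. Cox5b, a zinc-binding subunit, had 9.89 and 10.29 with sh74 and 10.41, 9.99 and 10.00 with sh75, against 10.27, 10.47 and 10.35 (-0.27, or -0.07 without sh74 replicate 1, and -0.23). Cox6a1 was lower without overlap with sh74, at 11.30 and 11.62 against 11.64, 11.81 and 11.62 (-0.23, or -0.07 without sh74 replicate 1), by a margin too small to show at this rounding, and Cox7a2 was lower without overlap with over-expression, at 8.82, 8.92 and 8.91 against 9.02, 9.20 and 9.03 with the vector (-0.20, adjusted p = 1). The 5 restricted paralogs above background had median changes of 0.07 with over-expression, 0.05 with sh74 and 0.04 with sh75.

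Genes around the complexes were followed in lists beside the set, and none passed the test. Cyc1, cytochrome c1 of complex III, which the symbol rule does not take in, had 8.66 and 9.08 with sh74, against 9.75, 9.39 and 9.39 with shScramble (-0.64 ± 0.15, adjusted p = 0.296, or -0.43 without sh74 replicate 1), and 9.36, 9.10 and 9.24 with sh75 (-0.27, adjusted p = 0.624). All 5 hairpin samples lay below all 3 controls. Bcs1l, the chaperone that inserts the Rieske protein into complex III, had 7.57 and 8.20 with sh74 and 8.16, 8.18 and 8.23 with sh75, against 8.63, 8.48 and 8.49 with shScramble (-0.65, adjusted p = 0.251, and -0.35, adjusted p = 0.49), also without overlap, and its change with sh74 was -0.34 without sh74 replicate 1. Uqcc1, an assembly factor for cytochrome b, was lower with sh75, at 6.93, 6.83 and 7.15 against 7.48, 7.48 and 7.33 (-0.46 ± 0.10, adjusted p = 0.197), and not with sh74 (7.36 and 7.44, -0.03, or 0.01 without sh74 replicate 1). Surf1, an assembly factor of complex IV, had 7.98 and 8.28 with sh74, against 8.60, 8.50 and 8.66 (-0.46, adjusted p = 0.484, or -0.31 without sh74 replicate 1). Ecsit, a complex I assembly factor, was next to Bcs1l in the mean of both hairpins (-0.59, adjusted p = 0.563, or -0.47 without sh74 replicate 1). In over-expressing cells Bcs1l had 8.84, 8.81 and 8.77, against 8.55, 8.73 and 8.61 with the vector (0.18, adjusted p = 1).

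Counted by list, 28 of 36 assembly factors outside the symbol rule were lower with sh74 and 22 with sh75, of 18 regulators of mitochondrial biogenesis 11 and 13, of 19 citrate cycle genes 11 and 8, and of 14 electron carriers and transporters 8 and 9. With over-expression 20, 10, 10 and 8 were lower, and no gene of these lists passed the test in any comparison. Of electron carriers, Vdac1, the outer membrane channel, was at -0.19 with sh74 (adjusted p = 0.715, or -0.18 without sh74 replicate 1) and Gpd2, the mitochondrial glycerol phosphate dehydrogenase, at -0.36 with sh75 (adjusted p = 0.522). The regulators with the smallest p were Polg (-0.40, adjusted p = 0.589), the mitochondrial DNA polymerase, and Tfb2m (-0.46, adjusted p = 0.652) with sh74, and Myc (-0.61, adjusted p = 0.567) and Slirp (-0.18, adjusted p = 0.605) with sh75. Without sh74 replicate 1 Polg was at -0.30 and Tfb2m at -0.09. Of citrate cycle genes they were Mdh2 (-0.16, or -0.04 without sh74 replicate 1) and Idh3b (-0.22, or -0.21) with sh74 and Cs, citrate synthase (-0.21), and Sucla2 (0.22) with sh75. With over-expression the smallest p in each list belonged to Gpd2 (0.19) and Slc25a3 (-0.12), to Cox14 (-0.13) and Bcs1l, to Ppargc1b (0.27) and Polg2 (-0.22), and to Idh2 (0.17) and Pdhb (-0.14). Without sh74 replicate 1, lower with sh74 were 16 of the 36 assembly factors, 7 of the 18 regulators, 8 of the 19 citrate cycle genes and 6 of the 14 electron carriers and transporters.

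Subunits encoded by mitochondrial DNA were represented by 2 probe sets. ND3 of complex I had 11.96 and 12.04 with sh74 and 12.14, 12.27 and 12.14 with sh75, against 11.96, 12.06 and 12.24 with shScramble. COX2 of complex IV had 12.42 and 12.44 with sh74 and 12.65, 12.59 and 12.34 with sh75, against 12.42, 12.51 and 12.55. Both overlapped between groups in the knockdown arm, with changes of -0.09 for ND3 and -0.06 for COX2 with sh74 (-0.05 and -0.06 without sh74 replicate 1), and of 0.10 and 0.03 with sh75. With over-expression the changes were -0.01 for ND3 and -0.12 for COX2.

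Correlations between the genes ran in both directions. Over 3741 pairs of the 87 genes, Pearson's r over the 14 samples had a median of 0.11 (-0.81 to 0.92), and 0.02 without sh74 replicate 1. The most alike were Ndufab1 and Uqcrq of complex III (0.92, or 0.88 without that library), and Ndufb5 and Atp5pb (0.89, or 0.91). Next were Cox7b and Cox8a (0.89, or 0.70 without that library). The most opposed were Uqcrb and Atp5d (-0.81, or -0.67 without it). All samples share one normalization, and the pairs are given as a description.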

How the data were processed

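RNA of 14 samples was measured on Affymetrix gene arrays. The deposited values are log2 intensities that the authors obtained with oligo's RMA (version not given in the sources used here), which corrects background, equalizes array distributions and summarizes probes. They were used without further normalization, so a change is relative to the rest of the transcriptome. Of 35556 probe sets, 21789 with exactly 1 symbol were tested (1621 had several symbols, 12146 none); 17 of the 89 genes had several probe sets, and 6 probe sets of like-named genes with several symbols were left out. Columns of unknown samples numbered 0. All 89 genes were found in RefSeq (GRCm38.p6) by Entrez identifier.

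One linear model over all 14 samples, with a mean for each of the 5 groups, was fitted with limma (version 3.58.1, R version 4.3.3), leaving 9 degrees of freedom, and comparisons were its contrasts, two-sided after eBayes, with Benjamini-Hochberg adjustment over 21789 probe sets and a call at an adjusted p under 0.05. The script was tested on simulated data. For over-expression, sh74, sh75, the mean of both hairpins and the over-expression change minus the knockdown change, the text names all called genes or, where fewer than 3 were called in a direction, the 3 with the smallest p in it among genes above background, together with the most and least variable gene of each complex, core subunits, complex IV paralogs, mitochondrially encoded subunits and the 2 genes with the smallest p of each neighbouring list. Other named genes, among them all those named for sh74 against sh75, were chosen after their values were seen. The genes and lists were chosen with earlier results of these data known. Alternatives were array median centring, a filter on dim probe sets, only the groups compared, an intensity trend and the mean of a gene's probe sets. Others were a two-group t-test for each comparison, a block by the numbers in sample titles, and leaving out each sample. The number of arrays limits the precision.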

Additional observations from a re-analysis of the deposited data

How the results depend on the processing

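No alternative other than leaving out a sample changed the count of called genes, which was 0 in every comparison. With 1 sample left out the count ranged from 0 to 1 for sh74, for the mean of both hairpins and for sh74 against sh75, and from 0 to 2 for any difference among groups. Without sh74 replicate 2 these were Ndufs1 (sh74, both hairpins and any difference, the change over both hairpins being -0.57, adjusted p = 0.0169) and Ndufs7 (sh74 against sh75, adjusted p = 0.021, and any difference), and without vector control replicate 2 it was Ndufa11. The median change of the set with sh74 ranged from -0.18 to -0.019, and that of the over-expression change minus the knockdown change from -0.036 to 0.037, lowest without sh74 replicate 1 and highest without sh74 replicate 2. Sdha with sh74 ranged from -0.015 to 0.36 and changed sign without sh74 replicate 1. The fall of Cnot7 with sh75 (-2.29) lost its call in limma with only the groups compared (-2.29, adjusted p = 0.0999). It also did so with a two-group t-test (-2.29, adjusted p = 0.579). The same held in limma with the replicate block by the number before the point of the title (-2.24, adjusted p = 0.262). With a sample left out the Cnot7 change with sh75 ranged from -2.53 to -2.03 and lost its call without shScramble replicate 1 or 2. At the authors' threshold of 0.01, separate two-group t-tests gave 1, 1 and 3 genes of the set with over-expression, sh74 and sh75. Of all probe sets 0.629%, 1.34% and 1.63% passed, and 0 genes of the set did after adjustment. The authors' own list, which took knockdown and over-expression together, was not remade here. The cause of these differences was not tested. The settings that changed a call also had fewer samples or degrees of freedom, and the part of that was not tested either.

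Deviations from the group means correlated at a median r of 0.09 (-0.31 to 0.61, 13 pairs) between samples sharing the number before the point and of -0.10 (-0.57 to 0.57, 65 pairs) between the others. Not every pair passed 0.1, so the numbers, whose meaning is not given in the sources used here, were not treated as pairing samples. That bar cannot show that samples sharing a number are independent. The p-values of the main limma model take no account of the numbers. Cldn7 was at 10.27, 10.19 and 10.52 in the samples numbered 4 before the point, and at 5.83 to 7.84 in those numbered 5. It was at 6.01 and 5.78 in those numbered 1 and at 5.98 and 10.92 in those numbered 7. Over-expressing and vector samples share no number before the point, nor do sh74 and shScramble samples, nor sh74 and sh75 samples. The part of the numbers in those comparisons was not tested. A block by the number before the point could be fitted only for sh75 against shScramble. There, 0 genes of the set and 2 probe sets in all were called, against 20 without it. A block by the number after the point gave 0 genes in each comparison, and over all probe sets 1 with sh74, 18 with sh75, 0 with the mean of both hairpins and 15 between hairpins, against 2, 20, 4 and 38 without the block. Complex medians, counts of lower genes and counts at an unadjusted p were followed under settings chosen after seeing the data. With a sample left out, the count at an unadjusted p ranged from 2 to 6 with over-expression (without vector control replicate 2 and without CNOT7 over-expression replicate 1, where 3.22% and 3.39% of all probe sets passed), from 4 to 23 with sh74 (without its replicates 1 and 2, 4.04% and 12.8% of all) and from 9 to 20 between hairpins (without sh75 replicate 1 and sh74 replicate 2, 8.58% and 9.87% of all).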
